A study of Arabidopsis thaliana with 5 samples.

Results

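PGY1, PGY2 and AT1G70600 encode proteins of the large subunit of the cytosolic ribosome in Arabidopsis thaliana. They were taken as every probe set annotated to these genes alone, which gave 3 probe sets, 1 for each gene, of the 8297 in the deposited table, where 3592 genes could be named. PGY1 (PIGGYBACK1, locus AT2G27530) belongs to the L10a family, PGY2 (PIGGYBACK2, locus AT1G33140) to the L9 family and AT1G70600 to the L27a family. The transcripts were measured in whole Col-0 seedlings aged 14 days, grown on plates at 22 °C with 16 h of light. Hypoxic seedlings had been kept in bags flushed with 0.2% oxygen in 99.8% nitrogen, and were taken after 30, 60 or 240 min. The other seedlings stayed in air and were sampled at 0 and 240 min. Each treatment and time has 1 array, so there were 3 hypoxia arrays and 2 air arrays, and differences between single arrays carry no replicate error and no p-value. A level below is the deposited log2 value, and a difference of 1 on that scale is a 2-fold difference.

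A ribosome is built from ribosomal RNA and a full set of ribosomal proteins, and in Arabidopsis each protein is encoded by a small family of near-identical genes. L10a forms the mobile L1 stalk, where spent tRNA leaves the ribosome, and L9 lies near the site where translation factors bind. L27a is a core protein of the large subunit. The piggyback mutants of Arabidopsis are known for altered leaf shape and for enhancing defects in leaf polarity, and L27a genes are likewise known to affect growth and leaf form. Oxygen shortage is known to take many ribosomal protein mRNAs of Arabidopsis off polysomes. The arrays measured total RNA, so the values below give transcript level and not translation.

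On several arrays the genes used to check the labels did not follow them. Of 5 genes known to respond to low oxygen, 5 were above 0 min air on the 60 min hypoxia array, with a median of 1.18. Only 3 of the 5 had a mean level at or over the median of all probe sets. The differences at 60 min ran from 0.01 to 2.82. On the array labelled 30 min hypoxia 5 of 5 were below 0 min air, with a median of −0.25 and a range of −1.43 to −0.06. On the array labelled 240 min hypoxia 5 of 5 were below time-matched air, with a median of −1.48, or −0.90 with the mean of the air arrays as control. Against time-matched air the 5 ran from −3.99 to −0.07. On the array labelled 240 min air, the time-matched control at 240 min, 4 of 5 were above 0 min air, with a median of 1.16. Whether each array holds the sample its label names cannot be told from these values. The conditions named below, 30 min hypoxia, 240 min hypoxia and 240 min air among them, therefore mean the arrays so labelled. Each direction, at 30 min as at 240 min, rests on those labels. On the 240 min hypoxia array the 3′ minus 5′ value of the GAPDH controls was 1.97, against −0.23 to 0.69 on the other 4. The ubiquitin controls set it less apart, with 3′ and 5′ values of 12.05 and 9.66 there. They were 13.07 and 10.92 at 30 min of hypoxia, and 11.25 and 9.58 at 60 min. In air they were 11.32 and 9.35 at 0 min, and 11.72 and 9.83 at 240 min. On the 30 min array, 6 of the 6 measured shoot markers were below 0 min air, with a median of −1.27. Of these, 5 had a mean level at or over the median of all probe sets, among them RCA, which encodes Rubisco activase, at 13.27 to 14.71. Of 15 root markers, only the peroxidase gene AT4G11290 had a named probe set, at 4.96 to 5.97. In whole seedlings, fewer cells of a type and less RNA per cell cannot be told apart.

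The 3 transcripts did not share a profile. AT1G70600 was lowest in 60 min hypoxia and 240 min air and highest in 240 min hypoxia, PGY2 stood apart in 240 min hypoxia alone, and PGY1 was lowest in 30 min hypoxia and at its air level in 240 min hypoxia. Over all times 0 of the 3 passed the test between hypoxia and air, as did 0% of the probe sets tested.

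PGY1 read 8.10, 8.47 and 8.63 at 30, 60 and 240 min of hypoxia, and 8.63 and 8.63 in air at 0 and 240 min. Its values in 240 min hypoxia and in both air arrays lay within 0.01 of each other, and the 30 and 60 min arrays lay below them. The difference from 0 min air was −0.54 at 30 min, a 1.45-fold lower level, and −0.17 at 60 min. At 30 min 12.7% of the probe sets that reached the array median on either array had a lower difference than PGY1. The difference from 240 min air at 240 min was 0.01. As a yardstick, the differences between the air arrays had an SD of 0.29 over the 698 probe sets whose mean level lay within 1 of that of PGY1. Such an SD spans different probe sets on air arrays sampled at different times, and is not the error of any member. The step from the 30 min to the 60 min array, 0.37, was larger than that SD, and the steps between the other neighbours in the order, 0.16 or less, were smaller.

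The near-identity of 3 of the PGY1 values is not a measure of its error. In the deposited table, 14.3% of the probe sets had 3 or more arrays within 0.01 of each other, and 31.2% had the same value on at least 2 arrays to 6 decimals. The PGY1 probe set carries the suffix _s_at, which Affymetrix gives to probe sets whose probes match more than 1 transcript. Its family members AT1G08360 and AT5G22440 had no probe set of their own, so their part in the signal was not tested. On the 30 min array, where PGY1 was lowest, the shoot markers were also at their lowest, and their part in the result was not tested.

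PGY2 read 10.07, 10.15 and 10.80 at 30, 60 and 240 min of hypoxia, and 10.06 and 10.19 in air at 0 and 240 min. The 240 min hypoxia array was above the other 4, which spanned 0.13. At 240 min PGY2 was 1.53-fold above time-matched air, a difference of 0.61 against an SD of 0.26 between the air arrays at its level. With the mean of the air arrays as control it was 0.67. The differences at 30 min (0.003) and 60 min (0.09) and that between the air arrays (0.13) were all smaller than the SD.

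The L9 family has 3 genes, and AT1G33120 is the protein-coding gene next to PGY2, with 0 others between them. AT1G33120 had no probe set of its own, so signal shared between these neighbours was not tested. The third gene, AT4G10450, read 7.18, 6.86 and 7.17 in hypoxia, and 7.12 and 7.12 in air. At 240 min it differed from air by 0.05, against the 0.61 of PGY2, and it was lowest at 60 min, where PGY2 was not.

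AT1G70600 read 10.84, 10.20 and 11.22 at 30, 60 and 240 min of hypoxia, and 10.75 and 10.20 in air at 0 and 240 min. The levels fell into 3 steps, with 60 min hypoxia and 240 min air 0.004 apart at the bottom, 30 min hypoxia and 0 min air 0.09 apart in the middle, and 240 min hypoxia 0.38 above them. The SD between the air arrays at this level was 0.28, over 245 probe sets. At 240 min the transcript was 2.03-fold above time-matched air, a difference of 1.02. At 60 min it was at −0.55 against 0 min air, a 1.46-fold lower level, and at 30 min it differed by 0.09. The L27a family members AT1G12960 and AT1G23290 had no probe set of their own, so their part in the signal was not tested.

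AT1G70600 also differed between the air arrays, at −0.55 in 240 min air against 0 min air, so the choice of air array bears on each of its values. Only 2.27% of the probe sets at the level required had a lower difference between the air arrays. With the mean of the air arrays as control, the 240 min difference was 0.75, and the 60 min difference was −0.27. After a further quantile normalization the 240 min difference was 0.99. AT1G70600 was the only member to differ by 1 or more in any of the 4 single-array comparisons, and these alternatives took it below 1. In the same comparison, 9.68% of the 4690 probe sets at or over the array median were higher by as much, and 90.6% of them had a lower difference than AT1G70600. For PGY2 that share was 84.7%, and for PGY1 55.3%. At 60 min against 0 min air, 8.58% of the probe sets at the level required had a lower difference than AT1G70600.

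**Figure D1:**
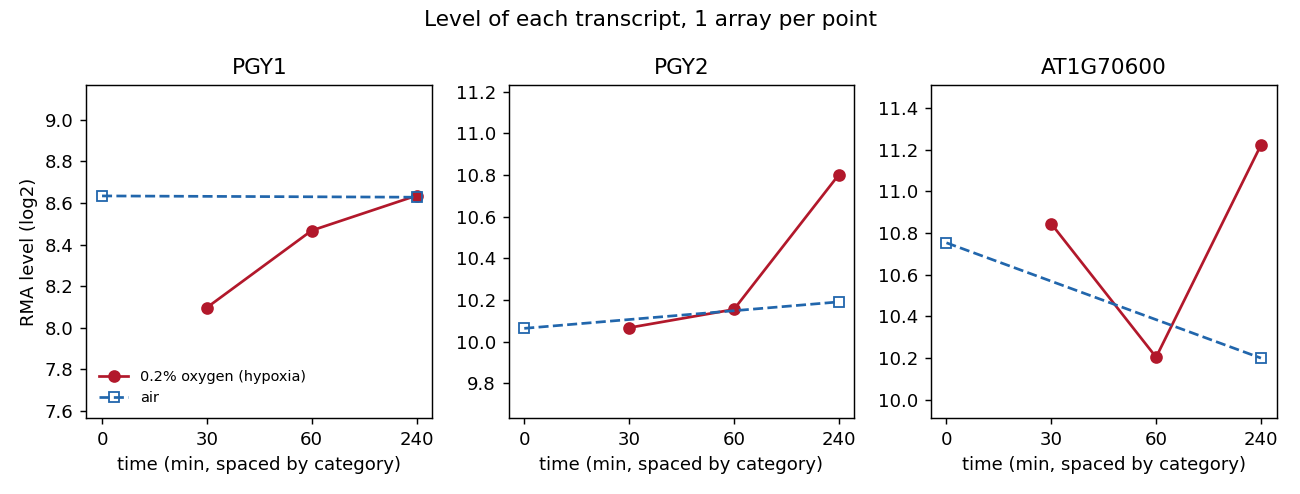
RMA level (log2) of PGY1, PGY2 and AT1G70600 by time in minutes, with 1 array per point. Filled circles are hypoxia and open squares are air, the lines only join arrays of a treatment, and each panel spans 1.6 log2 units. The lowest point of PGY1 is the 30 min hypoxia array at 8.10, PGY2 stands apart at 10.80 in 240 min hypoxia, and AT1G70600 is at 10.20 in both 60 min hypoxia and 240 min air.

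Set side by side, the members differed in which arrays moved. At 30 min the differences from 0 min air were −0.54 for PGY1, 0.003 for PGY2 and 0.09 for AT1G70600. At 60 min they were −0.17, 0.09 and −0.55 in the same order of genes. These comparisons share the 0 min air array, so they are not independent. At 240 min, against time-matched air, they were 0.01, 0.61 and 1.02. For 0 of the 3 members did the hypoxia arrays all lie above, or all below, the air arrays, a pattern found above air in 5.2% and below air in 8.16% of the 8247 probe sets tested.

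Across all times, AT1G70600 averaged 10.76 ± 0.51 in hypoxia and 10.48 ± 0.39 in air (SD, n = 3 and 2). The difference was 0.28 ± 0.37 (SE; limma, adjusted p = 0.98). PGY2 averaged 10.34 ± 0.40 in hypoxia and 10.13 ± 0.09 in air, a difference of 0.21 ± 0.26 (limma, adjusted p = 0.98). PGY1 averaged 8.40 ± 0.27 in hypoxia and 8.63 ± 0.004 in air, a difference of −0.23 ± 0.18 (limma, adjusted p = 0.98). Each difference was smaller than the SD of that gene over the hypoxia arrays. By limma, 0 of 8247 probe sets (0%) passed an adjusted p of 0.05, and 161 had an unadjusted p under 0.05, none of them a member. The times stand in for replicates in this fit, so its spread holds change with time as well as variation between samples. Without the 240 min hypoxia array the difference was −0.02 for PGY2 and 0.05 for AT1G70600, and without the 240 min air array it was 0.004 for AT1G70600.

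The wider family gave these values a setting. Of 237 cytosolic ribosomal protein genes listed by family, 54 had a probe set naming them alone, 35 of the large and 19 of the small subunit, and 49 had a mean level at or over the median of all probe sets. At 240 min of hypoxia 39 of the 54 were above time-matched air and 11 below, with a median of 0.13. Among all probe sets tested, 41.1% were above 0 and the median was −0.02. At 60 min 11 were above and 37 below 0 min air, with a median of −0.14, while 47.5% of all probe sets were below 0 and their median was 0. At 30 min 28 were above and 23 below, with a median of 0.002, while 45.3% of all probe sets were above 0. In 240 min air against 0 min air 14 were above and 30 below, with a median of −0.02. There 47.2% of all probe sets were below 0. Differences of exactly 0 make up the remainder in each comparison.

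Of the 54, between 0 and 3 reached a difference of 1 in each comparison. At 240 min 2 were higher and 1 was lower, or 5.56% of the list, against 7.51% of all probe sets tested (13.2% of those at the level required). At 60 min 1 was lower, or 1.85%, against 2.51% of all (4.62% of those at the level required). At 30 min and between the air arrays 0 were called, against 5.81% and 0.303% of all (10.5% and 0.563% of those at the level required). Among the 49 genes with a mean level at or over the median, 6.12% were called at 240 min and 2.04% at 60 min. The shares over all probe sets with such a mean level were 11.5% and 4.90%. With limma 0 of the 54 passed over all times, 27 being above and 27 below 0, with a median of −0.01. AT1G70600 was 1 of the 2 genes higher by 1 or more at 240 min.

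The list contained larger movements than those of PGY1 and PGY2. AT2G01250, of the L7 family, read 10.85, 9.92 and 11.65 in hypoxia, and 11.02 and 11.02 in air. It had the widest range of the 54 genes and was the gene called at 60 min, at −1.09, with 0.63 at 240 min. AT4G34670, of the S3a family of the small subunit, read 10.88, 10.77 and 12.03 in hypoxia, and 10.37 and 10.84 in air. Its difference at 240 min was 1.20, with 1.19 at its second, dimmer probe set, but in the other comparisons these probe sets disagreed in sign. They were at 0.52 and −0.23 at 30 min, at 0.40 and −0.33 at 60 min, and at 0.47 and −0.28 between the air arrays. AT2G40590, of the S26 family, was the gene called lower at 240 min, at −1.33. It read 7.49, 7.78 and 6.56 in hypoxia, and 7.92 and 7.89 in air. AT2G43460 (L38) was at 0.90 and AT2G19750 (S30) at 0.80 at 240 min.

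**Figure D2:**
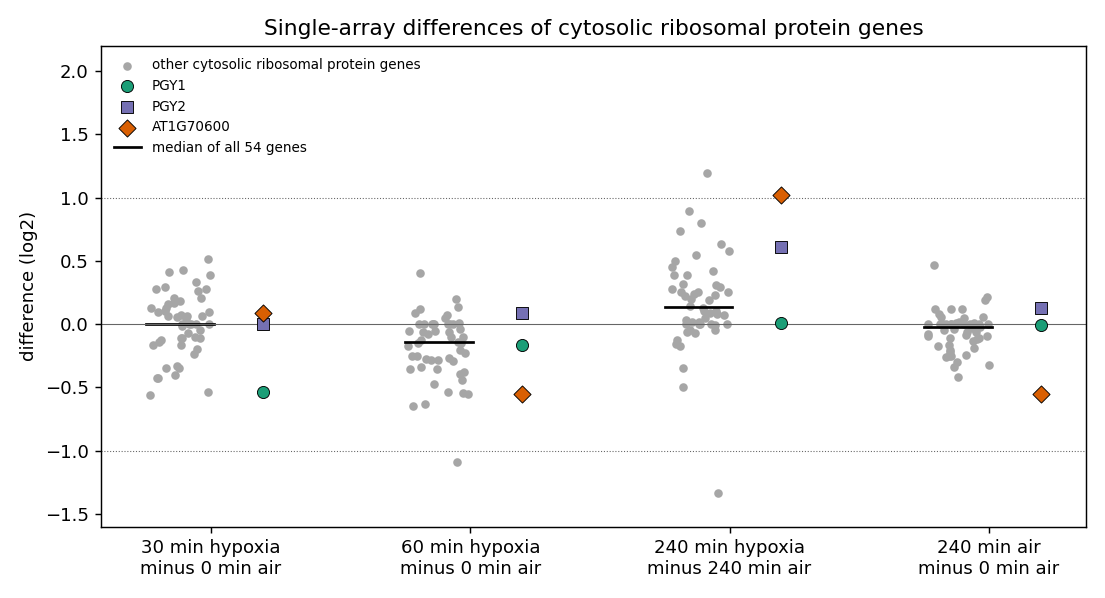
Differences (log2) in the 4 single-array comparisons, with PGY1, PGY2 and AT1G70600 as coloured symbols, the other 51 cytosolic ribosomal protein genes as grey points and the median of all 54 as a black line. Dotted lines mark a difference of 1. At 240 min AT1G70600 (1.02) and PGY2 (0.61) lie above the median of 0.13, and PGY1 (0.01) lies below it.

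In both subunits more genes were above than below air at 240 min, and more below than above at 60 min. At 240 min 27 of the 35 large-subunit genes were above air, with a median of 0.23, and 12 of the 19 small-subunit genes, with a median of 0.08. With the mean of the air arrays as control these medians were 0.22 and 0. After a further quantile normalization they were 0.14 and 0.05. At 60 min 23 of the 35 and 14 of the 19 were below 0 min air, with medians of −0.13 and −0.15. Without the 3 members, the medians of the other 51 genes were 0.12 at 240 min and −0.14 at 60 min. The difference between subunits was not tested.

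By array, the 54 genes were unevenly placed. The highest value fell on the 240 min hypoxia array for 26 genes (48.1%), against 20.5% of all probe sets. It fell on the 60 min array for 1 gene (1.85%), against 20.6%, and on the 30 min array for 16 genes (29.6%), against 25.6%. The lowest value fell on the 60 min array for 24 genes (44.4%), against 19.3% of all probe sets. All 3 members had their highest value on the 240 min hypoxia array, PGY1 by a margin of only 0.0015, and their lowest on different arrays. The genes share each array, so these counts describe 5 arrays and carry no test.

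**Figure D3:**
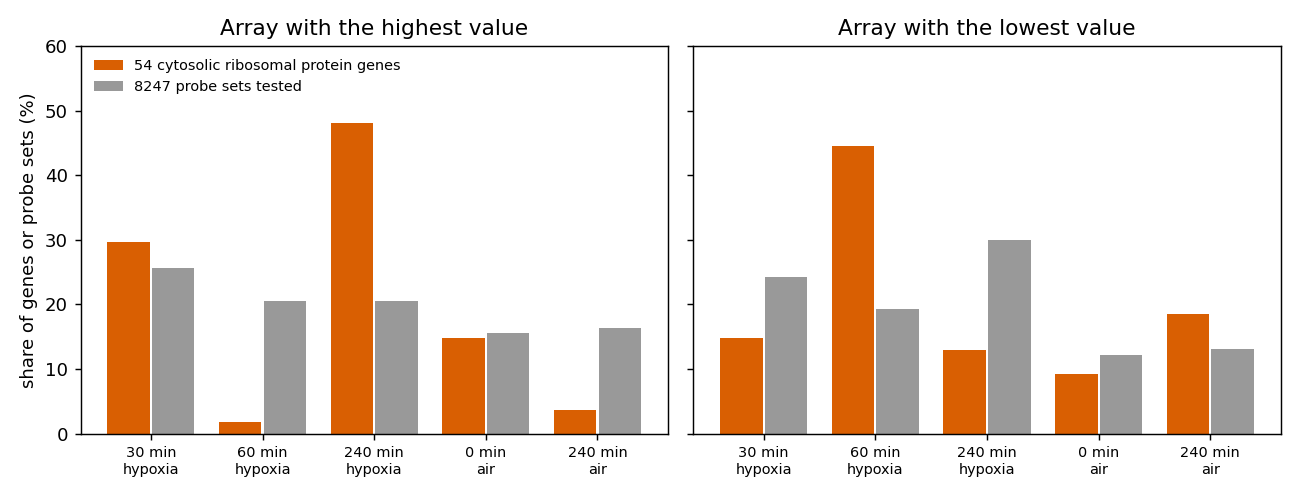
Share of the 54 cytosolic ribosomal protein genes (orange) and of the 8247 probe sets tested (grey) whose highest (left) or lowest (right) value fell on each array, in percent, leaving out ties. The 240 min hypoxia array holds the highest value for 48.1% of the ribosomal protein genes, and the 60 min array the lowest for 44.4%.

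Some control probe sets also moved on these arrays, not all in the same direction. The 25S ribosomal RNA control read 6.31, 6.16 and 7.56 in hypoxia at 30, 60 and 240 min, and 5.87 and 6.16 in air. The 5S ribosomal RNA control read 5.58, 5.12 and 6.51 in hypoxia, and 5.499 and 5.519 in air. Both were highest on the 240 min hypoxia array, by 1.41 and 0.99 over time-matched air, and their part in the results was not tested. The actin control was at 0.27 there and at −0.40 at 60 min. Against time-matched air at 240 min, the GAPDH controls ran from −0.87 to 0.55 and the ubiquitin controls from −0.17 to 0.33. At 60 min the 25S control was at 0.29 against 0 min air and the 5S control at −0.38. On the 30 min hypoxia array, where PGY1 was lowest, the GAPDH and ubiquitin controls were all above 0 min air, by 1.51 to 1.78, and their part in that result was not tested. Among the 20 probe sets on either side of each member in the table's order, the dim ones (under 5.5 on the other 4 arrays) had median 240 min differences of −0.12 around AT1G70600 (19 probe sets), −0.05 around PGY1 (9) and −0.24 around PGY2 (3). The median over all 4697 dim probe sets was −0.01.

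Other genes of the translation machinery were few on this array. Of 27 translation factor genes 3 were measured, too few to set their calls against those of all probe sets. EIF4A-2, which encodes an RNA helicase of translation initiation, read 10.02, 9.68 and 10.22 in hypoxia, and 10.39 and 9.84 in air. Its differences were −0.37 at 30 min, −0.71 at 60 min, 0.38 at 240 min and −0.56 between the air arrays. AT1G09640, for a subunit of elongation factor 1, was at −0.69 at 240 min, and AT2G40290, for the alpha subunit of initiation factor 2, at 0.07. The median of the 3 genes was 0.14 at 30 min, −0.02 at 60 min and 0.07 at 240 min.

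Of 18 ribosome biogenesis genes 3 were measured. AT5G27120, for a NOP58-like protein that carries small nucleolar RNAs, read 6.77, 6.25 and 6.9985 in hypoxia, and 7.48 and 6.65 in air. It was at −1.23 at 60 min and at −0.83 between the air arrays. AT2G40700 was at 0.22 at 60 min and at 0.04 at 240 min. The list's median was −0.33 at 30 min. At 240 min it was 0.34 against time-matched air but −0.06 with the mean of the air arrays as control. Of 45 organellar ribosomal protein genes 5 were measured, only 2 of them at or over the median level, with median differences of −0.12, 0.20 and 0.06 at 30, 60 and 240 min. AT2G43030, for the plastid protein L3, was lowest at 30 min, at −0.94, and AT4G17560, for the plastid protein L19, was at 0.57 at 60 min. Of 6 markers of dividing cells only PRL, for the replication protein MCM7, was measured. It read 6.43, 5.77 and 7.14 in hypoxia, and 5.93 and 6.22 in air, which is 0.92 at 240 min.

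Likeness of profile was measured as the root mean square distance between levels centred on their mean, over the 5 arrays and 1719 probe sets of other named genes at or over the median level. The profile nearest to AT1G70600 was that of AT3G09440, for a cytosolic HSP70, at a distance of 0.09. This was the dimmer of its 2 probe sets, and the brighter one moved further, at −2.27 at 60 min and 1.22 at 240 min, where AT1G70600 was at −0.55 and 1.02. The next were AT2G19750, the S30 gene, at 0.13 and AT2G17930 at 0.16. AT2G19750 read 9.86, 9.05 and 10.25 in hypoxia, and 9.70 and 9.45 in air. Nearest to PGY1 were AT4G33110 at 0.050, AT1G08900 at 0.051 and AT2G02050 at 0.058. Nearest to PGY2 were AT2G47710 at 0.048, AT2G21250 at 0.054 and AT3G16310 at 0.062. Among the 1719, PGY2 was at place 149 and PGY1 at place 818 from AT1G70600. From PGY2, PGY1 was at place 238 and AT1G70600 at place 514, and from PGY1, PGY2 was at place 653 and AT1G70600 at place 1266.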

How the data were processed

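Per the submitters' processing notes, RMA gave the deposited log2 levels, from biotin-labelled cRNA on a 1-colour Affymetrix array. Neither the version of RMA nor a genome build is stated in the labels. Having 1 array for each treatment and time limits the precision. RMA values give no read depth. The 5 columns had medians of 5.12 to 5.14 and were used as deposited. RMA compresses differences near the floor.

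Leaving out 50 control probe sets, 8247 were tested. The platform annotation named 1 gene for 3794 probe sets and several for 70, and 3784 of the first could be tied to RefSeq's TAIR10.1 gene table, used for names and gene order only. No coordinates or sequences are given.

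Hypoxia (3 arrays) was compared with air (2 arrays) by limma 3.58.1 in R 4.3.3, with Benjamini-Hochberg adjustment over all probe sets and a threshold of 0.05. The fit was tested on simulated data with independent noise and the same shift of a gene on each hypoxia array. That setting differs from these data, where the times stand in for replicates. The design text calls the samples independent. Single-array differences carry no p-value and are called at 1 or more where either array reaches its median level. A gene enters a list through its brightest probe set. The annotation holds no gene descriptions, so the ribosomal protein genes were listed by locus from their known families (80 families, of which 42 were measured), and 3 probe sets that name several of these genes were left out. Named genes are the members, their measured paralogs, the 5 ribosomal protein genes with the widest range other than these, the widest-ranging 2 or 3 genes of the translation factor, biogenesis and organellar lists, and the 3 nearest profiles. The rule also holds the 5 low-oxygen genes, of which PDC2 alone is given by name, and RCA, AT4G11290 and PRL come from the marker lists. PDC2 and RCA were picked as examples after their values were seen. The members and lists were chosen with earlier results of these data known. Alternatives were another quantile normalization, median centring, other filters, array weights, another air control and leaving out each array.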

Additional observations from a re-analysis of the deposited data

Results flagged for a closer look

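AT1G70600 moved in opposite directions at 60 and 240 min of hypoxia, at −0.55 against 0 min air and at 1.02 against 240 min air. Each value rests on 1 array a side, and no test of the 60 against the 240 min difference was run, so it is untested. The air arrays themselves were 0.55 apart, and the values against the mean of both were −0.27 and 0.75.

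The ribosomal RNA control probe sets, which enter no comparison of genes, read higher on the 240 min hypoxia array than in either air array. The 25S control was at 7.56, against 5.87 and 6.16 in air, and the 5S control at 6.51, against 5.499 and 5.519.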

How the results depend on the processing

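Of 33 recomputed single-array differences of the 3 members, 0 moved by the SD of the air pair at their level. Nearest to that cut-off came AT1G70600 with the air arrays averaged as control, where the SD was 0.284. Its values went from 0.091 to 0.368 at 30 min, from −0.549 to −0.272 at 60 min and from 1.023 to 0.746 at 240 min. All 3 of these shifts were larger than that SD over all probe sets tested (0.221) or over those at the level required (0.265). Of the 33, 3 changed sign, all of them the PGY2 difference at 30 min. It was −0.06 with the mean of the air arrays as control, −0.09 after a further quantile normalization and −0.002 after median centring. The count of members called at 240 min was 0 with the mean of both air arrays as control, 0 after quantile normalization and 0 at a difference of 1.5, by which fewer are called by construction. At 1.5 the ribosomal list had 0 genes called at 60 min and 0 at 240 min, and over all probe sets 185 were called at 30 min, 76 at 60 min, 345 at 240 min and 6 between the air arrays. Over all times, 0 probe sets passed limma's adjusted threshold under the alternatives run. At an unadjusted p under 0.05 there were 161, with 72 after the filter on dim probe sets (fewer were tested), 243 with array weights and 178 to 410 with 1 array left out, the highest without the 60 min array and 381 without the 240 min hypoxia array. The cause was not tested.

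With 1 array left out, the hypoxia minus air difference ran from −0.0165 (without the 240 min hypoxia array, the only one to change its sign) to 0.35 for PGY2, from 0.004 to 0.56 for AT1G70600 and from −0.35 to −0.08 for PGY1. No paired analysis was possible because the labels give no replicate numbers and only 240 min has arrays of both treatments.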

Other observations

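Genes of 1 ribosomal protein family did not always move together. Of the 12 families with several measured genes, 2 had members 1 or more apart in some comparison. In the L7 family AT2G01250 was at −1.09 and AT2G44120 at 0.13 at 60 min, while at 240 min they were at 0.63 and 0.55. In the S26 family AT2G40590 was at −1.33 and AT2G40510 at 0.12 at 240 min. In the L9 family the gap between PGY2 and AT4G10450 at 240 min was 0.56, and in the P2 family, of the acidic stalk proteins, AT2G27710 was at 0.45 and AT2G27720 at −0.07. Genes of the L14 family, AT4G27090 and AT2G20450, differed from air by 0.28 and 0.31 at 240 min. These genes were chosen after their values were seen, each value rests on 1 array a side, and probes that match both members of a family were not looked for.

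AT2G32060, of the S12 family and also chosen after its values were seen, read 6.39, 6.63 and 7.58 at 30, 60 and 240 min of hypoxia, and 6.79 and 6.84 in air, which is 0.74 at 240 min. Of the 5 low-oxygen genes used to check the labels, PDC2, for a pyruvate decarboxylase of ethanolic fermentation, read 5.62, 7.85 and 5.46 in hypoxia, and 5.78 and 6.94 in air.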
